A study of Rattus norvegicus with 8 samples.

Results

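The genes described are 9 that make, cut or bind hyaluronan, out of 32883 genes in the count table of rat Achilles tendons. They were chosen by name for their role, with earlier results of these data known. They are the synthases Has1, Has2 and Has3, the cleaving proteins Hyal1, Hyal2 and Cemip, the receptor Cd44, and the binding proteins Tnfaip6 and Vcan. Messenger RNA was sequenced from the right Achilles tendon of 8 male wild-type Sprague-Dawley (SD) rats aged 8 to 10 weeks. In 4 of them (12 h p.r., post-running) the tendon was taken after 12 h of rest that followed a single treadmill run of 1 h, during which air jets and weak shocks kept the rats on the belt. The other 4 (naïve control, NC) kept their normal cage activity and were killed at the same time, so the run and its handling cannot be told apart. The comparison addresses whether the expression of these genes differed from that of resting tendons 12 h after the run.

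Hyaluronan is a long unsulfated polysaccharide of the extracellular matrix. It is spun out at the plasma membrane by synthases that join UDP-glucuronic acid and UDP-N-acetylglucosamine, it is cut by hyaluronidases and related proteins, and it is held in the matrix and at cell surfaces by proteins that bind it. In tendon it is known as a component of the gliding surfaces, the sheath and the loose tissue between fascicles, where it acts in lubrication and hydration.

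Each library held between 7350509 and 12951397 counts, with a median of 8459357 in 12 h p.r. and 11866872 in NC. All 8 tenocyte markers (among them Tnmd, Scx and Col1a1) were present in every rat. Their summed level in CPM (counts per 1000000 counts, scaled between libraries) was lowest, at 16273, in 12 h p.r. replicate 3, against 27363 to 48542 in the other rats. That rat also had the highest summed level of the 9 skeletal muscle markers present, at 59674 CPM against 2075 to 11055 CPM elsewhere. The 8 cartilage and bone markers summed to 442 CPM in 12 h p.r. replicate 1 and to 1274 CPM in NC replicate 3, against 4.05 to 17.7 CPM in the other rats. For several of the genes the main estimate is also given without 1 or more of these libraries. In whole tissue, fewer cells of a type and less RNA per cell cannot be told apart.

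All 9 genes passed the filter on low counts and were tested among 13937 genes. None had an adjusted p value under 0.05 with edgeR's quasi-likelihood test (0 of 9, against 0.00718% of all genes tested), and none did with DESeq2 or limma. At an unadjusted p value under 0.05, edgeR gave 2 of 9, against 9.51% of all genes. Hyal1 was the 1 gene higher at 12 h p.r. (5.44% of all genes passed in that direction), and Tnfaip6 was the 1 gene lower (4.08% of all genes). The median log2 fold change over the 9 genes was -0.10, with 3 estimates above 0 and 6 below, and it was 0.02 over all genes tested. With so few genes these counts do not set the group apart from the rest.

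**Figure D1:**
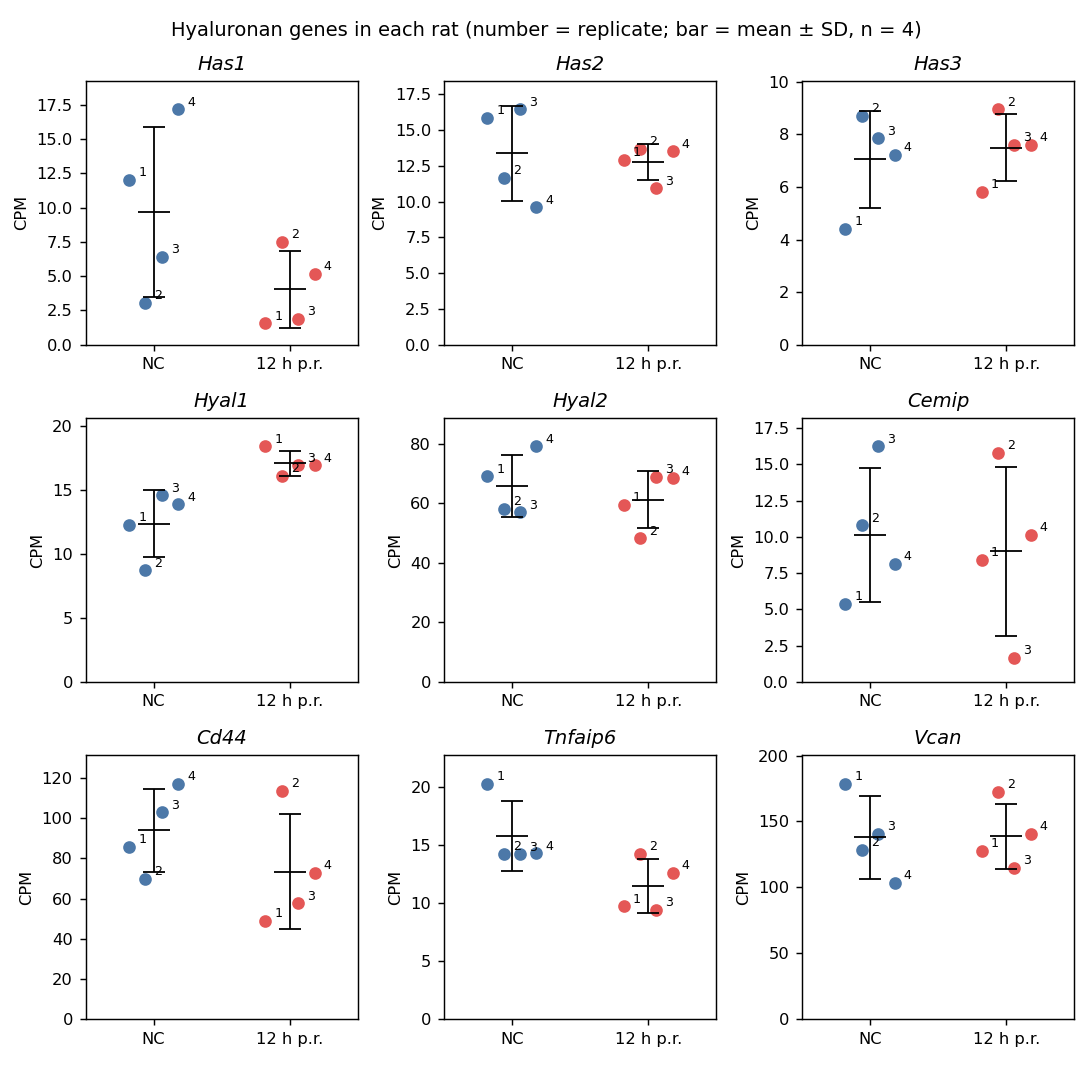
CPM (y axes, each starting at 0) of the 9 hyaluronan genes in each rat, with NC in blue and 12 h p.r. in red, the replicate number beside each point, and bars for the mean ± SD of 4 rats. Only in the Hyal1 panel do the groups not overlap, with 16.1 to 18.4 CPM at 12 h p.r. and 8.71 to 14.6 CPM in NC.

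The start regions of the 3 genes with the lowest p values, Hyal1, Tnfaip6 and Has1, are printed here because they carry the largest group differences among the 9. Each window covers 250 bases before and 50 after a RefSeq start on the GRCr8 assembly, read 5′ to 3′ on the gene's own strand, and capitals mark a match to any of the motifs named after them.
Hyal1, chr8:117129061-117129360, plus strand: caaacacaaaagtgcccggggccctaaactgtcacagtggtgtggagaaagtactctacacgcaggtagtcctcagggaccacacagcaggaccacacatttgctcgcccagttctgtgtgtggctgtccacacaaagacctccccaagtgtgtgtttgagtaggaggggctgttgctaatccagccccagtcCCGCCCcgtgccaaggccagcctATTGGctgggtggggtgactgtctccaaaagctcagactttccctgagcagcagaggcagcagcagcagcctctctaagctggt
Tnfaip6, chr3:56911148-56911447, plus strand: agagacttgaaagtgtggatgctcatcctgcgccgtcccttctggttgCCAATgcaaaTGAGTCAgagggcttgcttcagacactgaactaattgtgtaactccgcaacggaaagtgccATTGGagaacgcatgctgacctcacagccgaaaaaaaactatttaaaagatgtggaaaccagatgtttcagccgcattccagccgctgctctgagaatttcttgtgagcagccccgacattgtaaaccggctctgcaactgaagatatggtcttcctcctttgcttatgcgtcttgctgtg
Has1, chr1:67378395-67378694, minus strand: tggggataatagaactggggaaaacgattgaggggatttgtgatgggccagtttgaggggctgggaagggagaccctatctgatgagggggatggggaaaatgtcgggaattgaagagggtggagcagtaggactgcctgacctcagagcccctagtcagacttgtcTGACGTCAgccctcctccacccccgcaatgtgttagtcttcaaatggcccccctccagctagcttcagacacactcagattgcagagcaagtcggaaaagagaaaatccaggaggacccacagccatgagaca

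The motifs searched on both strands were the TATA box (TATAAA), the CCAAT box (CCAAT), the GC box (GGGCGG), the AP-1 site (TGACTCA), the E-box (CACGTG) and the cAMP response element (TGACGTCA), which was added after the windows had been read. The Hyal1 window held 1 GC box starting 57 bases before the start and 1 CCAAT box at 34 bases before it. GC boxes were in 33.1% and CCAAT boxes in 37.5% of all 33365 windows. The Tnfaip6 window held 2 CCAAT boxes, at 202 and 131 bases before the start, and 1 AP-1 site at 192 bases before it, a motif found in 4.64% of all windows. The Has1 window held 1 cAMP response element, 83 bases before the start, found in 1.83% of all windows. No window of the 3 held TATAAA (14.2% of all windows) or CACGTG (6.43%). A match describes letters in a window, and no binding was measured. Windows were matched by symbol for 7 of the 9 genes.

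Levels were set side by side between genes as FPKM, that is per gene length. This is the authors' gene length and not that of the transcripts expressed, so the order of genes depends on it. Hyal2 (ENSRNOG00000031420) had the highest mean over the 8 rats, 31.7 ± 4.86 FPKM (SD), followed by Cd44 at 21.0 ± 6.44, Vcan at 11.9 ± 2.26, Tnfaip6 at 9.94 ± 2.49 and Hyal1 at 8.73 ± 1.83 FPKM. Has1 averaged 3.26 ± 2.57 FPKM, Has2 3.12 ± 0.56, Cemip 1.37 ± 0.70 and Has3 1.04 ± 0.22 FPKM. Hyal2 thus stood above 82.2% of the genes tested and Has3 above 8.46%. Within rats, Cd44 exceeded Vcan, Hyal1 exceeded Has1, and Has2 exceeded Cemip in 8 of 8 rats, and Hyal2 exceeded Cd44 in 7 of 8. For the other neighbours the mean log2 ratio was smaller than its SD over 8 rats. Vcan to Tnfaip6 had 0.27 ± 0.29, with Vcan higher in 7 of 8 rats, and Tnfaip6 to Hyal1 had 0.18 ± 0.61 (5 of 8). Has1 to Has2 had -0.31 ± 1.17, with Has1 higher in 3 of 8, and Cemip to Has3 had 0.19 ± 0.86 (7 of 8). These ratios were not tested.

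Of the synthases, Has1 varied most between rats. Has1 (ENSRNOG00000010994) had 12.0, 3.07, 6.42 and 17.2 CPM in NC replicates 1 to 4, and 1.55, 7.51, 1.90 and 5.16 CPM in 12 h p.r. replicates 1 to 4, from 12 to 202 reads per library. The groups overlapped: NC replicates 1 and 4 were the highest rats of all, while NC replicates 2 and 3 lay among the running rats. NC rats averaged 9.67 ± 6.21 CPM and running rats 4.03 ± 2.83 CPM (SD, n = 4 each). The log2 fold change was -1.26 ± 0.61 (SE), with a 95% confidence interval of -2.64 to 0.11, an unadjusted p value of 0.0675 and an adjusted p value of 0.55 (edgeR). The interval spans folds from 0.16 to 1.08, so these data admit both a large reduction and no difference. DESeq2's unadjusted p value was 0.0286, and the estimate was -1.19 without both replicates numbered 3, -1.72 without 12 h p.r. replicate 2 and -0.84 without NC replicate 4.

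Has2 (ENSRNOG00000004854), the synthase known for its need in embryonic development, was much steadier. Its level was 15.9, 11.7, 16.5 and 9.60 CPM in NC replicates 1 to 4, and 12.9, 13.7, 10.9 and 13.5 CPM in 12 h p.r. replicates 1 to 4. All 4 running rats lay inside the range of the NC rats. Has2's log2 fold change was -0.07 ± 0.19 (SE; 95% confidence interval -0.50 to 0.35), which bounds the fold between 0.71 and 1.28. Its sign turned without NC replicate 1 or without NC replicate 3. On the RefSeq assembly a long non-coding RNA gene overlaps Has2.

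Has3 (ENSRNOG00000059362), which encodes a further synthase, had the lowest level per length of the 9 genes. It ranged from 4.41 to 8.71 CPM in NC and from 5.82 to 8.96 CPM at 12 h p.r., with 45 to 104 reads per library. Has3's log2 fold change was 0.09 ± 0.23 (SE; 95% confidence interval -0.44 to 0.63), and its sign turned without 12 h p.r. replicate 2 or NC replicate 1.

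Which synthase led differed between rats. Per length, Has1 made up 15.8, 43.9, 19.6 and 36.3% of the summed synthase FPKM in 12 h p.r. replicates 1 to 4, and 56.4, 26.6, 37.6 and 71.0% in NC replicates 1 to 4. Has1 was the leading synthase in NC replicates 1 and 4 and in 12 h p.r. replicate 2, and Has2 led in the other 5 rats. Summed over the synthases, NC rats averaged 8.81 ± 2.62 FPKM and running rats 6.02 ± 1.71 FPKM (SD, n = 4 each), and the ranges overlapped. These shares and sums are given as descriptions, with no test.

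**Figure D2:**
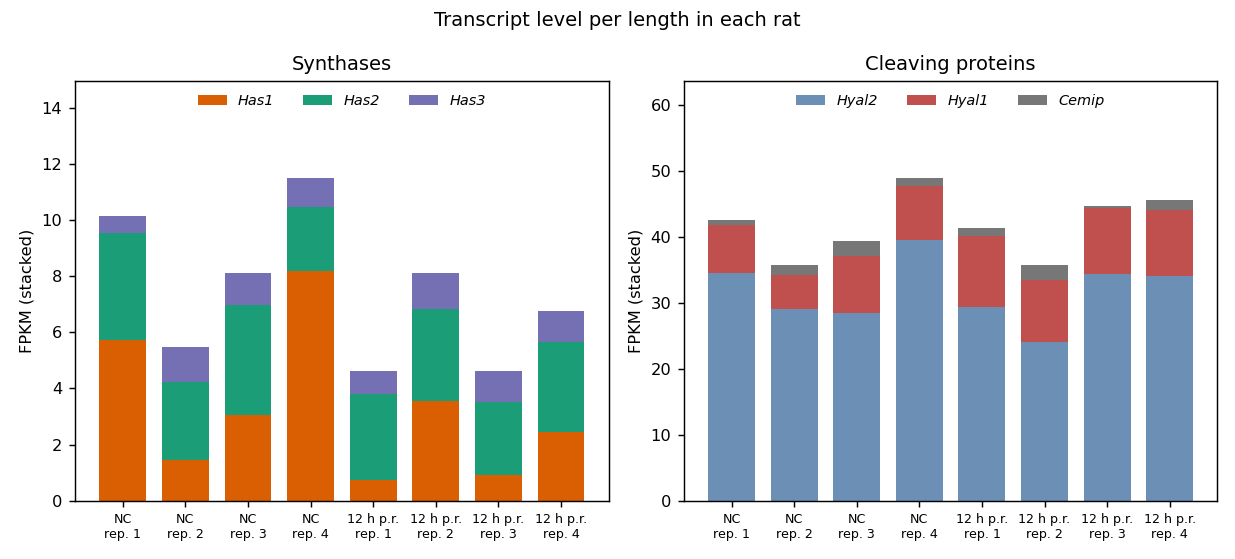
Stacked FPKM (y axes, from 0) of the synthases at left and of the cleaving proteins at right, with 1 bar per rat. The summed synthase level runs from 4.61 to 11.5 FPKM and moves with Has1, whereas the cleaving proteins sum to 35.7 to 49.0 FPKM and Hyal2 is the largest share in every rat.

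Among the cleaving proteins, Hyal1 was the gene whose groups did not overlap. Hyal1 (ENSRNOG00000015858), a lysosomal hyaluronidase, had 12.3, 8.71, 14.6 and 13.8 CPM in NC replicates 1 to 4, and 18.4, 16.1, 16.9 and 16.9 CPM in 12 h p.r. replicates 1 to 4. Every running rat was above every NC rat, a separation seen in 6.06% of all genes tested. Running rats averaged 17.1 ± 0.96 CPM and NC rats 12.3 ± 2.61 CPM (SD, n = 4 each), a ratio of 1.38. The log2 fold change was 0.46 ± 0.16 (SE; 95% confidence interval 0.09 to 0.83), with an unadjusted p value of 0.0194 and an adjusted p value of 0.45 (edgeR). The exact 2-sided permutation test over the 70 splits of the rats gave p = 0.0286, the smallest value this design allows, and Hyal1 was the only 1 of the 9 genes under 0.05 in that test. Its unadjusted p value stayed between 0.0128 and 0.0468 when each rat was left out in turn. The estimate was 0.55 without both replicates numbered 3 and 0.42 without 12 h p.r. replicate 1. On the RefSeq assembly Hyal1 overlaps the genes Hyal3 and Naa80. Hyal3 averaged 7.24 ± 1.52 CPM in the NC rats and 6.33 ± 0.88 CPM in the running rats (SD, n = 4 each).

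Hyal2, which encodes a hyaluronidase anchored at the cell surface, showed no such separation. It ranged from 57.0 to 79.1 CPM in NC and from 48.2 to 68.9 CPM at 12 h p.r. Its log2 fold change was -0.10 ± 0.15 (SE), and the 95% confidence interval of -0.44 to 0.23 bounds the fold between 0.74 and 1.17. Per length, the ratio of Hyal2 to Hyal1 was 2.71, 2.52, 3.42 and 3.40 in 12 h p.r. replicates 1 to 4, and 4.73, 5.61, 3.28 and 4.80 in NC replicates 1 to 4, so that NC replicate 3 lay among the running rats. Hyal1 made up 24.3 ± 2.41% of the summed FPKM of the cleaving proteins at 12 h p.r. and 17.6 ± 3.14% in NC (SD, n = 4 each). The sum itself was 41.9 ± 4.43 and 41.7 ± 5.61 FPKM.

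Cemip (ENSRNOG00000012442), which encodes a protein needed for hyaluronan breakdown outside the lysosome, depended on single libraries. It had 5.37, 10.8, 16.2 and 8.16 CPM in NC replicates 1 to 4, and 8.41, 15.8, 1.67 and 10.1 CPM in 12 h p.r. replicates 1 to 4. The lowest rat was 12 h p.r. replicate 3, the library with the most muscle and least tenocyte signal, and the highest was NC replicate 3. Its log2 fold change was -0.17 ± 0.55 (SE; 95% confidence interval -1.42 to 1.08). It was 0.17 without 12 h p.r. replicate 3, 0.15 without NC replicate 3 and 0.51 without both, so these data give no direction for Cemip. The link protein gene Hapln1 was also lowest in 12 h p.r. replicate 3, at 4.64 CPM, and highest in NC replicate 3, at 67.7 CPM, and so was the hyalectan gene Acan, which reached 128 CPM in the latter. The part of tissue make-up in these values was not tested.

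Cd44 (ENSRNOG00000006094), the main cell-surface receptor for hyaluronan, had 85.8, 69.8, 103 and 117 CPM in NC replicates 1 to 4, and 49.1, 114, 57.7 and 72.8 CPM in 12 h p.r. replicates 1 to 4. The groups overlapped: 12 h p.r. replicates 1 and 3 were the lowest rats, whereas 12 h p.r. replicate 4 was above NC replicate 2, and 12 h p.r. replicate 2 was below only NC replicate 4. Its log2 fold change was -0.36 ± 0.26 (SE; 95% confidence interval -0.96 to 0.24), with an unadjusted p value of 0.206 and an adjusted p value of 0.70 (edgeR). Without 12 h p.r. replicate 2 it was -0.65, with an unadjusted p value of 0.0124, and without 12 h p.r. replicate 1 it was -0.21.

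Tnfaip6 (ENSRNOG00000050792) encodes a secreted protein that binds hyaluronan and transfers the heavy chains of inter-alpha-inhibitor onto it. It had 20.3, 14.2, 14.2 and 14.3 CPM in NC replicates 1 to 4, and 9.71, 14.2, 9.40 and 12.6 CPM in 12 h p.r. replicates 1 to 4. The groups met where 12 h p.r. replicate 2 lay level with the lower NC rats. NC rats averaged 15.7 ± 3.02 CPM and running rats 11.5 ± 2.33 CPM (SD, n = 4 each), a ratio of 1.37. The log2 fold change was -0.46 ± 0.19 (SE; 95% confidence interval -0.88 to -0.04), with an unadjusted p value of 0.0362 and an adjusted p value of 0.50 (edgeR), and the exact permutation test gave p = 0.0857. Without NC replicate 1, the highest rat, the estimate was -0.31 with an unadjusted p value of 0.113. Without both replicates numbered 3 it was -0.42, with an unadjusted p value of 0.0828.

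Vcan (ENSRNOG00000029212), which encodes the large hyaluronan-binding proteoglycan versican, was the most even between the groups. It ranged from 104 to 179 CPM in NC and from 115 to 172 CPM at 12 h p.r., with at least 963 reads in each library. Over all 8 rats, its log2 fold change was 0.01 ± 0.18 (SE; 95% confidence interval -0.40 to 0.43), which bounds the fold between 0.76 and 1.34. Its sign turned without 12 h p.r. replicate 2, NC replicate 2 or NC replicate 4.

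Around these 9 genes, 34 further gene symbols of hyaluronan metabolism were listed, of which 32 were in the table and 21 passed the filter. None of the 21 had an adjusted p value under 0.05 with edgeR, and 3 had an unadjusted p value under 0.05, all lower at 12 h p.r., against 9.51% of all genes in either direction and 4.08% lower. All 3 were among the 7 genes of precursor synthesis, and all 3 act on the path from fructose 6-phosphate to UDP-N-acetylglucosamine. The median log2 fold change of the 7 precursor genes was -0.36.

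Gfpt2, an enzyme of the rate-limiting first step of that path, had 105, 50.5, 73.4 and 115 CPM in NC replicates 1 to 4, and 26.0, 69.4, 28.9 and 56.4 CPM in 12 h p.r. replicates 1 to 4. The groups overlapped, with NC replicate 2 below 12 h p.r. replicates 2 and 4. The log2 fold change was -0.93 ± 0.36 (SE), with an unadjusted p value of 0.0298 and an adjusted p value of 0.48 (edgeR). Without both replicates numbered 3 it was -0.84, with an unadjusted p value of 0.0719.

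Gnpnat1, which acetylates glucosamine 6-phosphate, had 69.6, 43.3, 40.4 and 52.4 CPM in NC replicates 1 to 4, and 26.8, 40.6, 27.0 and 44.8 CPM in 12 h p.r. replicates 1 to 4. Its log2 fold change was -0.56 ± 0.22 (SE), with an unadjusted p value of 0.0332 and an adjusted p value of 0.49 (edgeR), and it was -0.56 without both replicates numbered 3. The last enzyme of the path, Uap1, had 237, 142, 159 and 252 CPM in NC replicates 1 to 4, and 103, 143, 108 and 147 CPM in 12 h p.r. replicates 1 to 4, so that NC replicate 2 lay among the running rats. Its log2 fold change was -0.66 ± 0.21 (SE), with an unadjusted p value of 0.0130 and an adjusted p value of 0.43 (edgeR), and it was -0.68 without both replicates numbered 3. In Uap1 the unadjusted p value stayed at or under 0.0401 whichever rat was left out, whereas it exceeded 0.05 for Gfpt2 and Gnpnat1 in 4 of the 8 such fits each.

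The other 4 precursor genes did not pass at an unadjusted p value under 0.05. Gfpt1, the paralog of Gfpt2, had a log2 fold change of 0.05 ± 0.18 (SE), and Pgm3, which acts between Gnpnat1 and Uap1, had -0.04 ± 0.19. Ugdh, which makes UDP-glucuronic acid, had -0.36 ± 0.20 with an unadjusted p value of 0.11. Ugp2, which supplies UDP-glucose, had 0.35 ± 0.33 and reached 322 CPM in the muscle-rich 12 h p.r. replicate 3, against 107 to 135 CPM in the other rats. Without that rat the direction turned, to -0.17 with an unadjusted p value of 0.137. Its mean level per length over the 8 rats, 70.2 FPKM, was exceeded on the list by that of Uap1 at 71.5 FPKM and of the lysosomal exoglycosidase Hexa at 78.6 FPKM.

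In the remaining lists no gene had an unadjusted p value under 0.05. The log2 fold changes were -0.08 for the exoglycosidase Gusb, 0.09 for Hexa, -0.20 for Hyal3 and -0.12 for Cemip2, a further hyaluronan-cleaving protein. Of the receptors, Lyve1 had -0.57 ± 0.35 (SE), Layn 0.25 ± 0.13 and Stab1 0.24 ± 0.14. The pentraxin Ptx3, which joins Tnfaip6 and the inter-alpha-inhibitor chains in hyaluronan networks, had 0.32 ± 0.21, and the only heavy chain gene past the filter, Itih3, had 0.14 ± 0.14. Below the filter were Hyal4, Spam1, Stab2, Bcan, Ncan, Hapln2, Hapln4, Itih1, Itih2, Itih4 and Ambp. Itih5 was not found by symbol. The listed symbol Tmem2 was not found either, but it is an earlier name of Cemip2, whose value is given above.

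**Figure D3:**
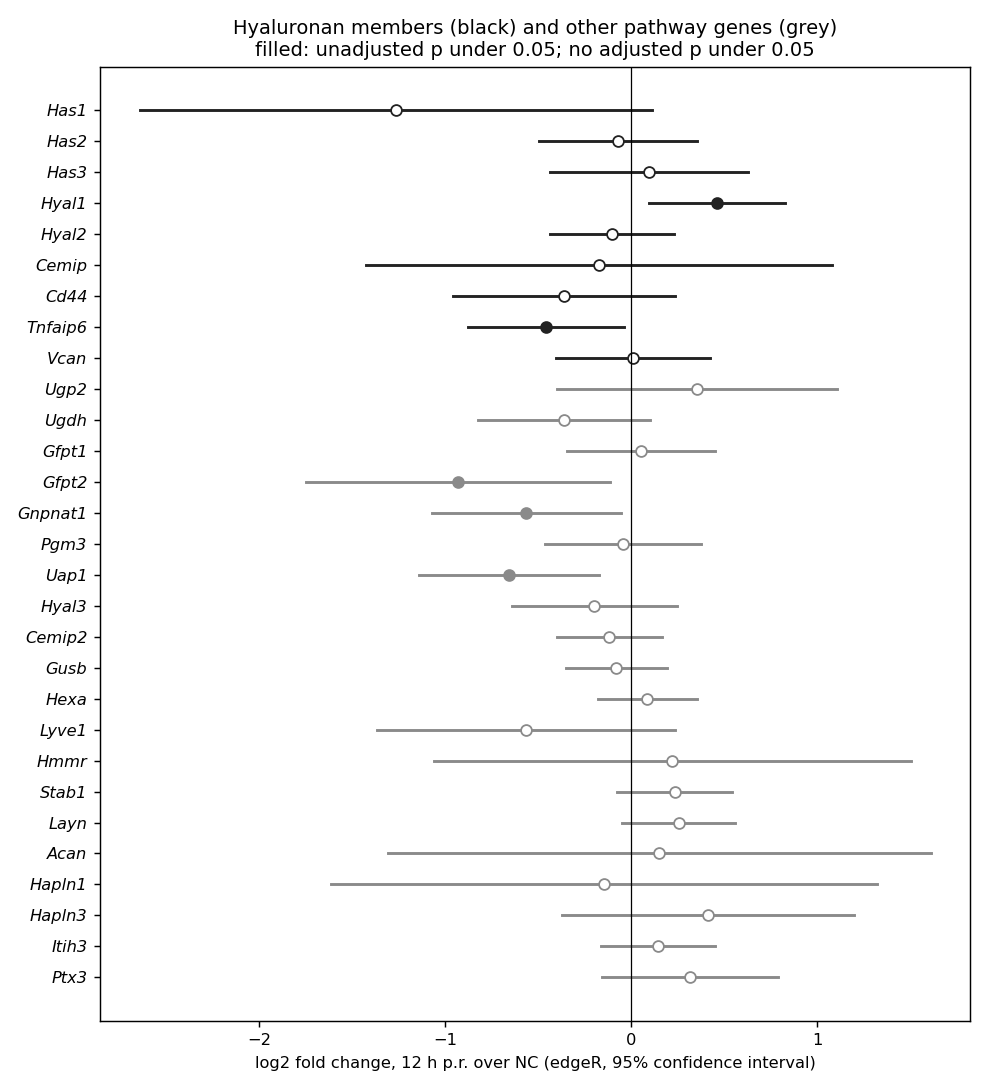
Log2 fold change of 12 h p.r. over NC (x axis) with its 95% confidence interval from edgeR for the 9 hyaluronan genes in black and 20 of the 21 tested pathway genes in grey, filled where the unadjusted p value was under 0.05. The intervals of Hyal1, Tnfaip6, Gfpt2, Gnpnat1 and Uap1 leave out 0, and those of Has1, Cemip, Acan and Hapln1 are among the widest.

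Has1, Gfpt2 and Uap1 were similar in their order over the 8 rats. NC replicates 4 and 1 were the highest rats, and 12 h p.r. replicates 3 and 1 the lowest, for each of these 3 genes. Gnpnat1, Ugdh and the marker Cd55 of the synovial lining and sheath had these same rats highest and lowest. Gfpt1, Pgm3 and Ugp2 had their highest rat in 12 h p.r. Among 11155 genes with a mean of at least 5 CPM, the 3 whose log2 CPM was most like that of Has1 over the 8 rats were Vsig4 (Pearson r = 0.99), Lurap1l (0.98) and Gfpt2 (0.98). Of the 36 pairs among the 9 genes, the closest were Has1 with Cd44 (r = 0.88), Has2 with Vcan (0.82) and Has1 with Tnfaip6 (0.79). These coefficients share the same 8 libraries and the group difference itself, and they are descriptions with no test.

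Several markers of the synovial lining and sheath and of leukocytes had higher values in NC replicates 1 and 4 than in 12 h p.r. replicates 1 and 3, namely 4 of the 5 lining and sheath markers and 5 of the 8 leukocyte markers. Others did not, among them Dpp4, which was lowest in NC replicate 4. The same order held for 2 of 5 Schwann cell, 1 of 9 skeletal muscle, 1 of 8 cartilage and bone and 1 of 6 endothelial markers. It held for 0 of 8 tenocyte, 0 of 5 pericyte and smooth muscle and 0 of 5 adipocyte markers. The rats compared were the highest and lowest in Has1, and the share of all genes with this order was not computed. The 5 lining and sheath markers summed to 753 to 3177 CPM at 12 h p.r. and to 810 to 3869 CPM in NC. The 8 leukocyte markers summed to 492 to 2406 CPM at 12 h p.r. and to 720 to 3417 CPM in NC. The lubricin gene Prg4 had 1582, 561, 1232 and 3130 CPM in NC replicates 1 to 4, and 572, 2785, 465 and 1584 CPM in 12 h p.r. replicates 1 to 4, so that the 3 rats with the least Has1 were also the 3 with the least Prg4. Cd55, a lining marker, had a log2 fold change of -1.07 ± 0.40 (SE) with an unadjusted p value of 0.0262 and an adjusted p value of 0.48 (edgeR), whereas Prg4 had -0.27 ± 0.65. Pi16 had -0.58 ± 0.20 with an unadjusted p value of 0.0174 and an adjusted p value of 0.45 (edgeR). Clic5 had -0.58 ± 0.47 and Dpp4 had 0.02 ± 0.34. Lyz2, a macrophage gene, had 3075 CPM in NC replicate 4 and 2682 CPM in NC replicate 1, against 344 to 2005 CPM in the other rats. The other leukocyte markers differed in their highest rat. It was NC replicate 1 for Csf1r, Cd3e and Fcgr3a, and NC replicate 3 for Cd68. For Ptprc and Itgam it was 12 h p.r. replicate 2, and for Cd14 it was 12 h p.r. replicate 4. The part of lining, sheath or leukocyte content in the values of Has1, Cd44, Gfpt2 and Uap1 was not tested.

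**Figure D4:**
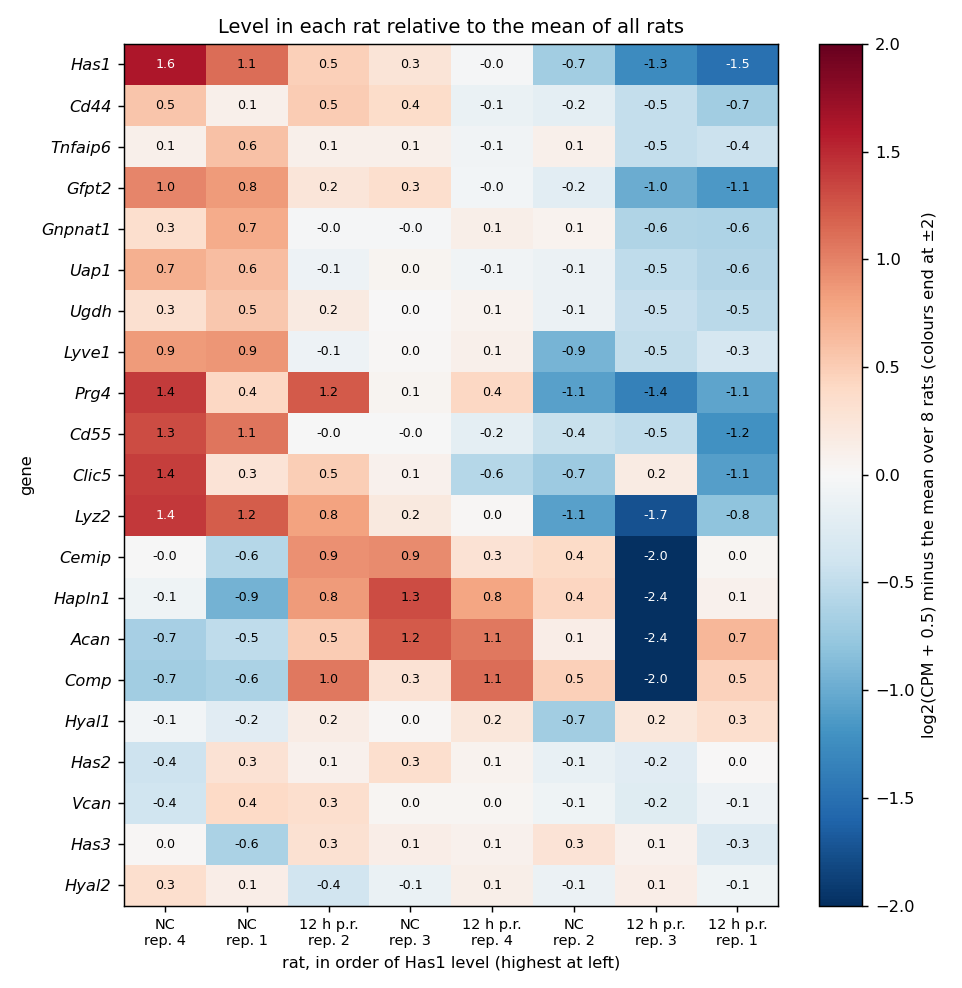
Log2(CPM + 0.5) of 21 genes minus each gene's mean over the 8 rats (colour, with the value in each cell), with rats on the x axis in order of their Has1 level. The non-member genes were chosen after their values were seen. The rows from Has1 to Lyz2 are mostly high in NC replicates 4 and 1 and low in 12 h p.r. replicates 3 and 1, and the rows from Cemip to Comp have their lowest value in 12 h p.r. replicate 3.

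The remaining genes had other neighbours over the rats. Cemip was most like Hapln1 (r = 0.98), Tmem138 (0.97) and Gpr153 (0.97). Hyal1 was most like AABR07049134.1 (0.97), Casp8 (0.96) and Cplx2 (0.96), and Tnfaip6 most like Casc4 (0.98), Nxt1 (0.96) and Tra2b (0.95). Cd44 was followed by Tgs1 (0.97), Dusp6 (0.96) and Atp2b1 (0.94), and Hyal2 by Tmem252 (0.94), Wars2 (0.93) and Anxa3 (0.93). Has2 was most like Cd300c2 (0.93), RGD1359127 (0.91) and Dcakd (0.90), Vcan most like Cmas (0.94), Ncapg2 (0.94) and RGD1359127 (0.92), and Has3 most like Brd1 (0.95), Tnfrsf21 (0.93) and Wfs1 (0.92).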

How the data were processed

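The authors aligned stranded poly(A) RNA-seq reads to Rnor_6.0 with HISAT2 2.1.0 and deposited counts per gene from featureCounts 1.6.3. The deposited FPKM values equal count over gene length divided by a DESeq2 1.30.1 size factor, as recomputed from the files. The strand setting of the counting is not given in the sources used here. The authors' comparison table (log2 fold changes and p values) was not used. Counts were tested with edgeR 4.0.16 (filterByExpr, TMM, quasi-likelihood F test, Benjamini-Hochberg over 13937 genes), and CPM are TMM-scaled. The code was tested on simulated data with the same group sizes. There edgeR called 44.4% of the genes given a log2 fold change of 1 in size and 78.6% of those given 2. DESeq2 1.42.0 and limma 3.58.1 were alternatives, with other filters, scalings and omissions of rats. Single genes had an exact 2-sided permutation test on log2(CPM + 0.5). Groups came from the sample labels, which give no batch. No libraries were identical.

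The 9 genes and all lists were chosen with earlier results of these data known. Named were all 9, list genes with an unadjusted p value under 0.05, the 3 of highest mean FPKM, those below the filter, and the 3 genes most like each of the 9. Replicate numbers named different rats and did not pair them. p values set the difference between the groups against the spread between rats. The values of 1 list gene are not reported here.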

Additional observations from a re-analysis of the deposited data

Results flagged for a closer look

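In 48 groups of 4 rats, formed by the 9 hyaluronan genes, 5 named pathway genes, the 9 marker lists and the total counts, the gap between an extreme rat and its nearest neighbour was compared with Dixon's 95% critical value for 4 values. It was exceeded in 4 groups, and chance flags about 1 in 20 groups, or 2.4 of 48. Tnfaip6 in NC replicate 1 was at 4.38 on the log2(CPM + 0.5) scale, and the other NC rats were at 3.88 to 3.89, so the group difference in Tnfaip6 rests in part on that rat. The mean log2 level of the tenocyte markers in 12 h p.r. replicate 3 was 8.62, against 9.72 to 9.86 in the other running rats. That of the cartilage and bone markers was 4.01 in 12 h p.r. replicate 1, against -0.23 to 0.40 in the other running rats, and 5.41 in NC replicate 3, against 0.32 to 0.54 in the other NC rats.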

How the results depend on the processing

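None of the 9 hyaluronan genes was called under any of the 18 alternatives. The number of all genes called was 1 and depended on the tool: DESeq2 called 68, or 96 with independent filtering, limma 3 on log2(FPKM + 0.1) and 0 on log2(FPKM + 1). It was 0 without both replicates numbered 3 and 0 to 0 when each rat was left out. The number of hyaluronan genes at an unadjusted p value under 0.05 was 2, it was 1 without both replicates numbered 3, and it ran from 1 to 4 over the fits without 1 rat, with 4 without 12 h p.r. replicate 2 and 1 without 12 h p.r. replicates 1 or 3 or NC replicate 1. For the pathway genes the number was 3 and ran from 1 to 4, with 1 without 12 h p.r. replicates 1 or 3 or NC replicates 1 or 4. Over all genes tested, the number at an unadjusted p value under 0.05 was 1326 of 13937. It was 1443 of 14189 without 12 h p.r. replicate 2 and 1507 of 13950 without both replicates numbered 3. Without 12 h p.r. replicates 1 or 3 it was 1146 of 14208 and 1580 of 14236. Without NC replicates 1 or 4 it was 1067 of 14043 and 879 of 14007.

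Same-numbered rats deviated together with r = -0.20 to 0.13, and 1 of 4 correlated best with its own number. With the replicate block, 0 genes were called and 1 hyaluronan gene had an unadjusted p value under 0.05, against 974 of all 13937 genes. The sign of the log2 fold change turned for 5 genes, all with intervals spanning 0. Without 1 rat, Has2 ran from -0.20 to 0.0434, Has3 from -0.0774 to 0.21, Cemip from -0.58 to 0.17, Vcan from -0.11 to 0.16 and Ugp2 from -0.17 to 0.519. Without both replicates numbered 3, Has2 was 0.11, Cemip 0.51 and Ugp2 -0.169. The cause was not tested. Exact permutation tests without 1 rat or on within-number differences could not reach 0.05 (smallest p 0.0571 in the former) and were not run. Has1 and Cemip had as few as 12 and 14 reads in a library, which limits their precision.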
